A study of Arabidopsis thaliana with 9 samples.

Results

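The 216 genes described here were listed as expressed in emf2 callus and in neither wild-type (WT) callus nor leaf, out of 18861 genes of Arabidopsis thaliana listed in at least 1 of the 3 tissues. They are called emf2-only genes below. A gene was listed in a tissue when its mean over 3 libraries was above 1 RPKM. RPKM is a read count divided by the gene's length and by a size factor of the library. Of 244 genes listed in emf2 callus alone, 28 were set aside by words in their deposited names: 19 with F-box, 6 with AGAMOUS and 3 with cystatin. The emf2 callus levels chose these genes, so those levels are given as a description without a test. In WT callus and leaf all that is known of each is that its mean did not pass 1 RPKM.

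Polyadenylated RNA was sequenced in 3 groups of 3 biological replicates each. The first was callus from cotyledons of the emf2 mutant, carrying the emf2-1 allele per the file headers, and the second was callus from cotyledons of WT Col-0. Both were raised on Gamborg B5 medium with 2.2 µM 2,4-D, an auxin, and 0.46 µM kinetin, a cytokinin, were moved to the dark after 7 days in light, and were 6 to 8 weeks old. The third was rosette leaf of WT Col-0 taken 2 weeks after transplanting to soil in long days. The callus groups thus share medium and darkness, which leaf does not. The zygosity and the background accession of the emf2 line are not given in the sources used here.

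Polycomb Repressive Complex 2 (PRC2), of which the EMF2 protein is a part, methylates histone H3 at a lysine of its tail and keeps developmental genes silent outside their own tissue and stage. Plants without EMF2 are known for making flower-like organs soon after germination. Callus is a mass of dividing cells whose gene expression in Arabidopsis resembles that of a lateral root founder tissue rather than that of flower, shoot or seed.

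The targeted gene itself was transcribed in every group. EMF2 had 13.0, 15.5 and 16.3 RPKM in emf2 callus, 7.43, 6.78 and 7.55 RPKM in WT callus, and 5.50, 6.07 and 29.6 RPKM in leaf. The callus groups did not overlap, but the difference of 0.95 ± 0.51 (SE) in log2(RPKM + 1) did not pass limma's moderated test over 16185 genes (adjusted p = 0.620, n = 3 each). With callus libraries only the adjusted p was 0.0564 (limma). It passed when leaf replicate 3 was left out (adjusted p = 0.0253), and over 15 alternatives the adjusted p ranged between 0.0253 and 1.00. A gene-level RPKM cannot show the mutated base or exon of emf2-1, so it does not check the genotype. The photosynthesis gene RBCS1A had 0.0917, 0.427 and 4.55 RPKM in emf2 callus, 0.646, 0.0485 and 3.19 RPKM in WT callus, and 15971 to 26448 RPKM in leaf. Reads on listed genes, recovered from the RPKM values, numbered 41305792 to 54662429 per emf2 callus library, 42955776 to 55013540 per WT callus library and 42360827 to 46968675 per leaf library. On the emf2-only genes there were 74600, 90182 and 51452 reads in emf2 callus replicates 1, 2 and 3.

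The sequences below show the single microRNA among these genes, its site in a target that all tissues list, and the DNA in front of 5 MADS-box genes that stand high or side by side. They were read from the RefSeq assembly TAIR10.1, whose gene identifiers matched all 216 genes. The first is the microRNA miR824 from the locus MIR824A, with bases 2 to 8 of each mature arm (the seed) in capitals, at chr4:12625128-12625148 for the 5p arm and chr4:12625721-12625741 for the 3p arm, both on the plus strand.
miR824-5p: uAGACCAUuugugagaaggga
miR824-3p: cCUUCUCAucgauggucuaga
The best match to miR824-5p in the gene AGL16 lies at chr3:21180537-21180557 on the plus strand, inside an annotated coding exon. Capitals mark the 20 of 21 bases that match the exact complement of the microRNA, and the next best window in the gene had 7 mismatches. The lower-case t faces a g of the microRNA, and G:U pairing was not scored.
AGL16 site: TCtCTTCTCACAAATGGTCTA

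The windows below are the 250 bases before the annotated gene start, written along the gene's strand. Capitals mark AAACCCTA in TT16 and GAGAGA in SEP2 and SHP1, sequence types that Polycomb recruiting factors are known to bind in Arabidopsis. TT16 is on the plus strand at chr5:7835715-7835964, SEP2 on the minus strand at chr3:467152-467401 and SHP1 on the plus strand at chr3:21737910-21738159.
TT16: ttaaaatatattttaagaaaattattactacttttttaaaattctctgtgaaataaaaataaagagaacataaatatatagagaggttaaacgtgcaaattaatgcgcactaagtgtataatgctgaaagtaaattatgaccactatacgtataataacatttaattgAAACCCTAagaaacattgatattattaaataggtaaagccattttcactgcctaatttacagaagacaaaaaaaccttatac
SEP2: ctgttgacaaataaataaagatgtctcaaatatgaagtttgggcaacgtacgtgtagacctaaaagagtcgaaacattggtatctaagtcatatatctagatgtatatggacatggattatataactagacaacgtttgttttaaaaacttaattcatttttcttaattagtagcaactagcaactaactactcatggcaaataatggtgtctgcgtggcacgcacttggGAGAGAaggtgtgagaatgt
SHP1: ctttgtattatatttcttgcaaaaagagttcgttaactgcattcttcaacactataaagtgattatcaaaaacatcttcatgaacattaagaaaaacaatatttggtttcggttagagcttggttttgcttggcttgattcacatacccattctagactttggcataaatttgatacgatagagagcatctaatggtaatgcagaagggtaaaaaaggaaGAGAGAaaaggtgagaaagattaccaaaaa
MAF4 and MAF5 are tandem copies on the plus strand of chromosome 5, with windows at chr5:25991943-25992192 and chr5:25997254-25997503. Capitals mark runs of 20 and 15 identical bases that occur in the same order in both.
MAF4: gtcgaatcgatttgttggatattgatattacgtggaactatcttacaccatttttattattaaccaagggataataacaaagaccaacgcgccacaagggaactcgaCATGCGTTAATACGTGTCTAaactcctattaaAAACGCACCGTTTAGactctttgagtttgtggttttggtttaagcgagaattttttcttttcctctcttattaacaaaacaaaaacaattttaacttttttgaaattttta
MAF5: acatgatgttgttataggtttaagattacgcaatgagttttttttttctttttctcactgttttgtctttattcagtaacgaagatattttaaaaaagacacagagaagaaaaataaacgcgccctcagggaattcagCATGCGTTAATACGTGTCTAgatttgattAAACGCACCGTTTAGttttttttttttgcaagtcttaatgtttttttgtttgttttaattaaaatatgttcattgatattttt
Over all 216 windows, searched on both strands, AAACCCTA was in 14 (6.48%), against 3.68% of the windows of all listed genes and 4.49% of those of all annotated protein-coding genes. GAGAGA was in 39 (18.1%), against 19.3% of all listed genes. CACGTG, the G-box, was in 12 (5.56%), against 7.36%, and the CArG box, the letters MADS-domain proteins bind, was in 6 (2.78%), against 2.66%. No binding was measured, and these shares are counts of letters only.

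Most emf2-only genes were low and a few were well above the listing minimum. The median of their means was 1.56 RPKM, against 8.52 RPKM over the other 16430 genes of the emf2 callus table. There were 73 genes with a mean above 2 RPKM, 26 above 5 RPKM and 7 above 10 RPKM. The counterpart set, 210 genes listed only in WT callus with the same words set aside, had 51 genes above 2 RPKM, 5 above 5 RPKM and 1 above 10 RPKM, and its highest mean was 10.3 RPKM. Absence means a mean of at most 1 RPKM. On the deposited scale, the mean of an emf2-only gene is therefore also the least fold by which it exceeded WT callus and leaf.

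The highest was AT1G27860, a gene of the DUF626 family without a known role, with 30.7, 38.1 and 35.0 RPKM in emf2 callus replicates 1, 2 and 3, so at least 34.6-fold above WT callus and leaf. STKL2, a DNA-binding protein of the storekeeper-like family, had 24.6, 28.3 and 22.2 RPKM. All these values were 22.2 RPKM or higher, far above the 1 RPKM that absence allows. TCP1, a TCP transcription factor of the class that controls branching and flower symmetry in other plants, had 21.3, 15.7 and 16.9 RPKM, at least 18.0-fold above the other tissues. AT1G20730, a DUF833 gene, had 20.8, 14.8 and 16.1 RPKM, and its relative AT1G20740, with 4722 bases between the gene ends, had 1.67, 1.94 and 1.32 RPKM. AT4G05490, a leucine-rich RNI-like protein, had 12.7, 7.17 and 13.9 RPKM and was lowest in replicate 2.

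**Figure D1:**
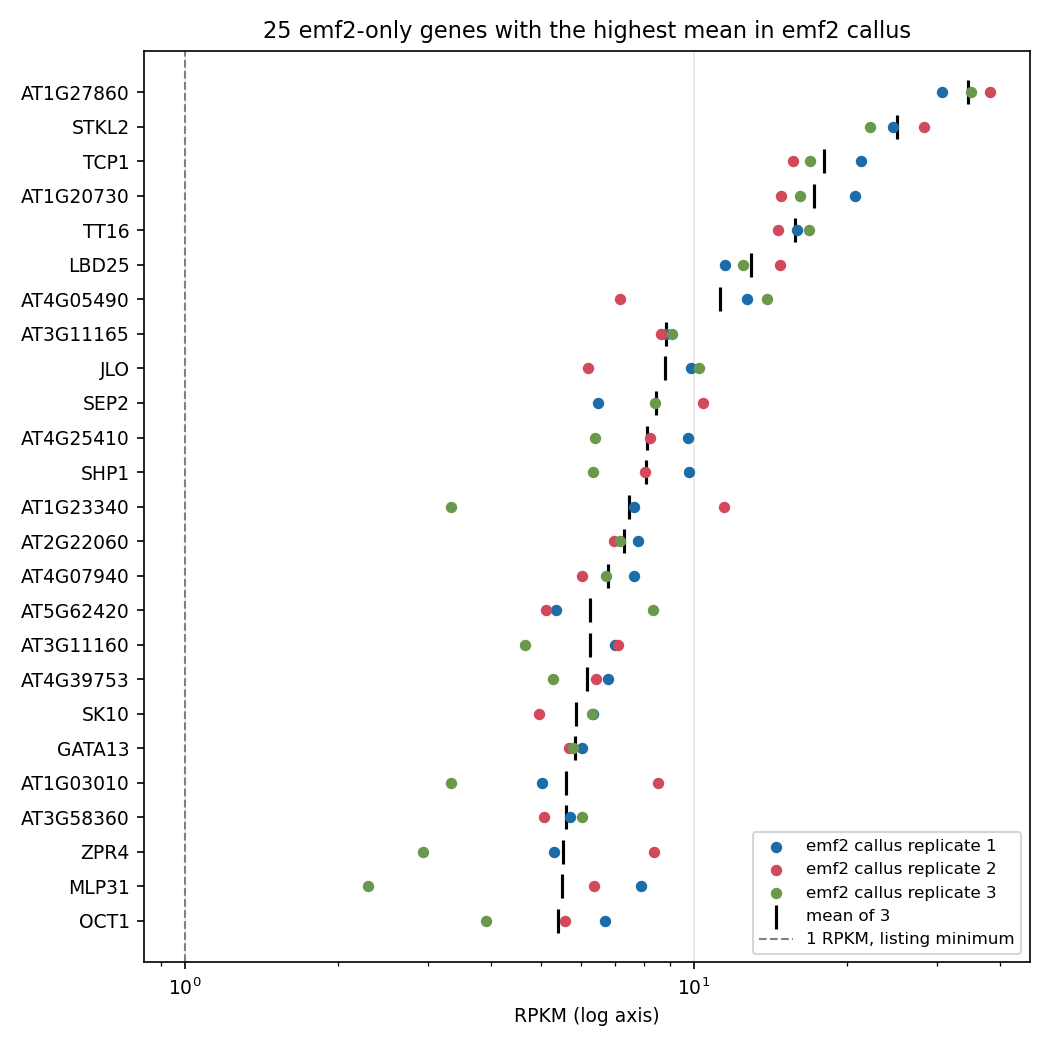
RPKM (log axis) in each of the 3 emf2 callus libraries, with the mean as a bar, for the 25 emf2-only genes with the highest mean, from AT1G27860 at 34.6 RPKM to OCT1 at 5.40 RPKM. All points lie right of the dashed line at 1 RPKM, and replicate 3 is far left of the others in AT1G23340, ZPR4 and MLP31.

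Each of these 25 genes was above 1 RPKM in all 3 emf2 callus libraries, and 9 of them encode DNA-binding factors. The group further held AT3G11165 and its neighbour AT3G11160, which encode proteins of unknown role, with 8.81, 8.62 and 9.05 RPKM and 6.99, 7.09 and 4.67 RPKM. Protein turnover was represented by SK10, a SKP1-like adaptor of ubiquitin ligases, with 6.33, 4.96 and 6.31 RPKM. The kelch-repeat genes AT2G22060 and AT4G39753 averaged 7.31 ± 0.419 and 6.16 ± 0.779 RPKM (SD, n = 3). OCT1, a carnitine transporter, had 6.70, 5.59 and 3.91 RPKM and MLP31, of the major latex protein family, had 7.89, 6.38 and 2.29 RPKM. Both were lowest in replicate 3. AT1G23340, a DUF239 proteinase-like gene, had 7.62, 11.5 and 3.33 RPKM, again lowest in replicate 3.

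TT16, SEP2 and SHP1, MADS-box genes of flower, ovule and fruit identity, were among the 25 highest emf2-only genes. In the flower, MADS-domain proteins act as DNA-binding tetramers that give each organ its identity. The family also holds genes of other roles, such as the flowering repressor FLC. Of its 38 listed genes 7 (18.4%) were emf2-only, against 216 of all 18861 listed genes (1.15%). Families were chosen with the values in view, so these shares are descriptions. These 7 stayed because their deposited names lack the set-aside words, and 6 more with AGAMOUS in the name were set aside. TT16, which specifies the inner seed coat layer, had 16.0, 14.6 and 16.8 RPKM. SEP2, a partner of the floral organ identity proteins, had 6.49, 10.4 and 8.41 RPKM, and SHP1, which shapes the valve margin of the fruit and the carpel, had 9.78, 8.01 and 6.33 RPKM. STK, which acts with SHP1 in ovule identity, was low, with 1.61, 1.55 and 1.33 RPKM. TT16, SEP2 and SHP1 thus stood at least 15.8, 8.44 and 8.04-fold above WT callus and leaf, while STK at 1.50 RPKM was near the minimum. The gene AT3G58790 overlaps 10.3% of SHP1 and averaged 14.2, 7.97 and 8.76 RPKM in emf2 callus, WT callus and leaf. Reads of the bases shared by these 2 genes cannot be told apart. PI, a MADS-box gene of petal and stamen identity, was listed in both callus tables, with means of 51.3 RPKM in emf2 callus and 22.3 RPKM in WT callus. Of a list of 16 other flower and fruit regulators, among them LFY, CRC, SUP and IND, 0 were emf2-only, 3 were listed in any tissue, and 0 of the 2 tested between the callus groups passed (limma, adjusted p = 0.925 for AP2 and 0.168 for SPT, of which SPT alone had an unadjusted p under 0.05).

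Repressors of flowering appeared beside these flower genes. FLC, the main brake on flowering that cold silences through PRC2, had 2.69, 4.51 and 1.87 RPKM and was highest in replicate 2. MAF4 and MAF5, relatives of FLC in tandem on chromosome 5, had 3.03, 2.71 and 2.35 RPKM and 2.52, 2.51 and 1.78 RPKM. All 9 values lay between 1.78 and 4.51 RPKM, above the minimum in each library. MAF3, the next copy of the same tandem array, was listed in all 3 tissues at 2.94 RPKM in emf2 callus, 2.73 RPKM in WT callus and 2.76 RPKM in leaf. An annotated transcript on the opposite strand covers the whole FLC gene, and the library kit does not mark strand, so sense and antisense reads cannot be told apart there.

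**Figure D2:**
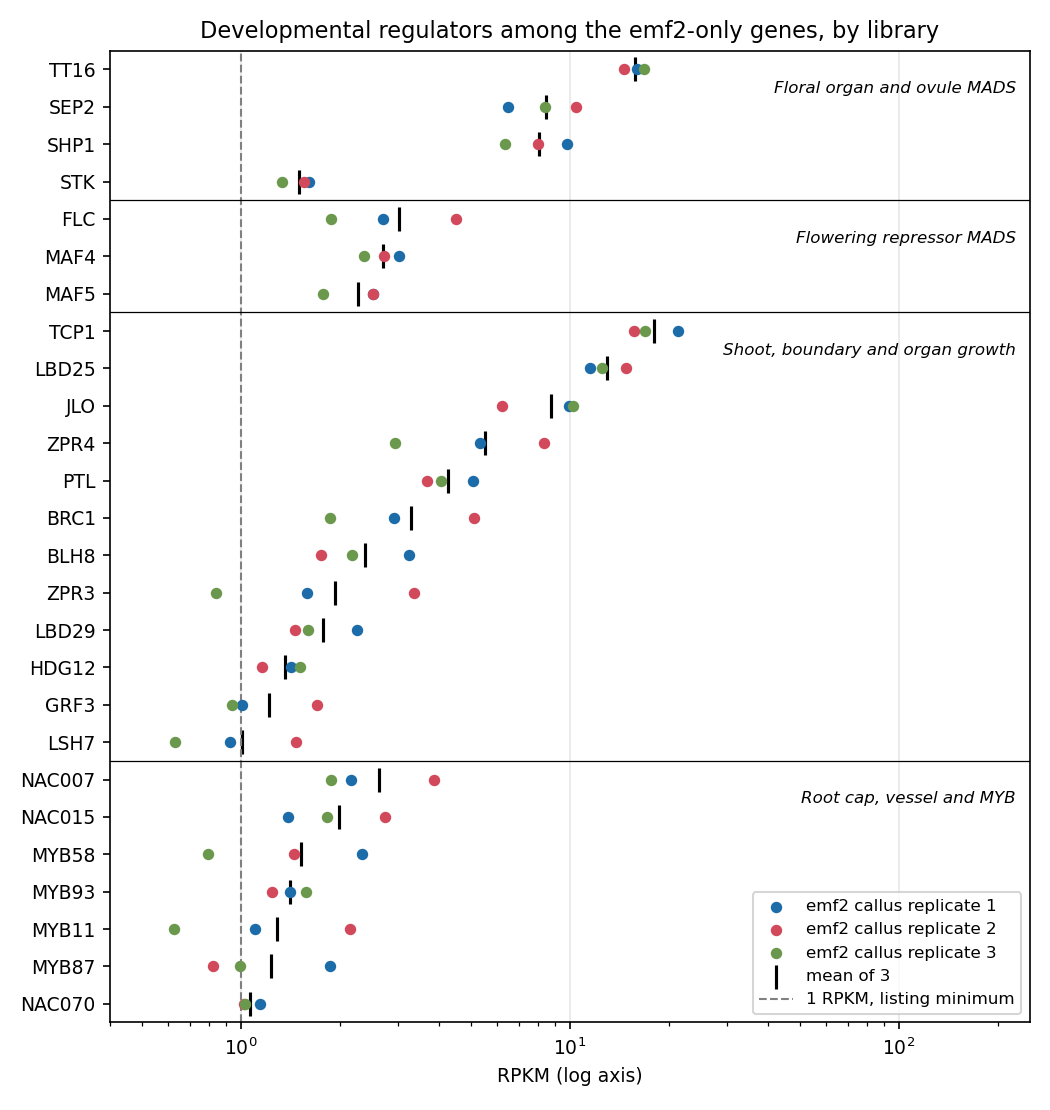
RPKM (log axis) in each emf2 callus library for 26 emf2-only developmental regulators, grouped by what they are known for, with the mean as a bar and the 1 RPKM listing minimum dashed. TT16, TCP1 and LBD25 lie above 10 RPKM in every library, whereas LSH7, GRF3, ZPR3, MYB58, MYB11 and MYB87 have at least 1 library under the dashed line.

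Factors of shoot, organ boundary and organ growth formed a group of 12, with means between 1.01 and 18.0 RPKM. LBD25, a LOB-domain factor, had 11.5, 14.8 and 12.5 RPKM, and JLO, a LOB-domain factor of the boundary between meristem and organ, had 9.89, 6.19 and 10.2 RPKM. LBD29, which acts in lateral root founding and in callus induction, had 2.25, 1.46 and 1.59 RPKM, lower than both in every library. BRC1, the brake on axillary buds and a relative of TCP1, had 2.91, 5.09 and 1.86 RPKM. TCP1 and BRC1 were 2 of 19 listed TCP genes. PTL, which limits growth between sepals, had 5.08, 3.66 and 4.05 RPKM, above the minimum in each library.

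The little zipper genes ZPR3 and ZPR4, known for small proteins that block class III homeodomain factors of the shoot apex, differed among libraries in the same way. ZPR4 had 5.31, 8.34 and 2.93 RPKM and ZPR3 had 1.59, 3.35 and 0.840 RPKM, with replicate 2 highest and replicate 3 lowest in both. The RefSeq annotation used here gives ZPR4 as a non-coding RNA, and it is counted as one below. BLH8, a homeodomain partner of meristem KNOX proteins, had 3.23, 1.75 and 2.17 RPKM. HDG12, an epidermal homeodomain factor, averaged 1.36 ± 0.181 RPKM, GRF3, a growth-regulating factor, 1.22 ± 0.422 RPKM and LSH7, of the ALOG family, 1.01 ± 0.422 RPKM (SD, n = 3 each), the last 2 with some libraries under 1 RPKM. Of the shoot meristem list (STM, KNAT1, KNAT6, CUC2 and 5 others), 4 of 9 genes were listed, none was emf2-only, and 1 of 4 tested passed as higher, against 0.13% of all genes tested. That gene, KNAT1, had 11.3, 14.9 and 13.3 RPKM in emf2 callus and 2.50, 3.89 and 3.61 RPKM in WT callus (log2 difference 1.71 ± 0.18 SE, limma adjusted p = 0.0382, n = 3 each, no leaf values). KNAT1 passed in 10 of 15 alternatives, and did not without any 1 emf2 callus library (limma adjusted p 0.143 to 0.187) or without WT callus replicate 1 (0.104) or 3 (0.0817). STM, which keeps shoot meristem cells undifferentiated, had 20.9, 21.1 and 19.7 RPKM in emf2 callus and 3.00, 0.651 and 3.89 RPKM in WT callus, groups that did not overlap. Its log2 difference of 2.76 ± 0.39 (SE) did not pass (limma adjusted p = 0.0719, n = 3 each), but it passed at 2.28 without WT callus replicate 2 (0.00816; range over 15 alternatives 0.00816 to 0.294). CUC2, of the organ boundary, lay the other way, with 5.20, 4.19 and 7.47 RPKM in emf2 callus and 15.5, 19.3 and 9.60 RPKM in WT callus, and did not pass (log2 difference −1.23 ± 0.29 SE, limma adjusted p = 0.239, n = 3 each). STM and CUC2 have no leaf values.

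Regulators of mature root and vessel tissue were present at lower levels. NAC007, a vessel differentiation factor, had 2.15, 3.85 and 1.88 RPKM. Of the vessel genes on the marker lists, VND7 was listed in no tissue. CESA7 averaged 1.86 RPKM in emf2 callus and 1.32 RPKM in WT callus, and XCP1 averaged 3.62 and 5.66 RPKM. Neither passed (limma adjusted p = 0.825 and 0.931, n = 3 each). NAC015 and NAC070, known as BRN1 and BRN2 in root cap maturation, had 1.39, 2.73 and 1.82 RPKM and 1.14, 1.02 and 1.02 RPKM. SMB, which acts with them in the root cap, was listed in both callus tables and had 16.1, 10.3 and 12.8 RPKM in emf2 callus and 19.4, 13.6 and 8.73 RPKM in WT callus. The SMB groups overlapped (log2 difference −0.04 ± 0.30 SE, limma adjusted p = 0.980, n = 3 each; SMB has no leaf values, so its own spread came from callus). On the list of root hair and root cap genes that holds these 3, EXPA7 was listed in WT callus alone, with a mean of 1.37 RPKM. RSL4 and COBL9 of that list were listed in no tissue. BRN1 and BRN2 were the only emf2-only genes on 10 marker lists with 76 genes in all, and 0 of 3 tapetum and anther genes and 0 of 2 trichome genes were listed in any tissue. MYB58, tied to lignin, MYB11, tied to flavonols, MYB93, tied to lateral roots, and MYB87 averaged between 1.23 and 1.52 RPKM, and an annotated transcript covers the whole MYB58 gene.

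DNA-binding factors made up 35 of the 216 genes (16.2%) by hand grouping, of which 27 were above 1 RPKM in all 3 libraries. By word patterns in the deposited names the count was 24 (11.1%), against 5.18% of all listed genes and 7.14% of the genes listed only in WT callus. By word patterns, 3 of 20 listed LOB-domain genes, 5 of 56 NAC genes, 5 of 85 bHLH genes and 4 of 87 MYB genes were emf2-only. GATA13 had 6.04, 5.69 and 5.78 RPKM, with little spread. The bHLH gene AT4G25410 had 9.74, 8.20 and 6.38 RPKM, whereas its neighbour and relative AT4G25400 averaged 1.42 ± 0.131 RPKM and AT4G28790 rested on replicate 2, with 0.662, 2.71 and 0.244 RPKM. The hand grouping and the families were formed with the values in view and are given as counts.

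The hand-made hormone and signal group held 7 genes, with a median of 1.94 RPKM and a highest mean of 2.35 RPKM. GA20OX1, an enzyme of gibberellin synthesis, had 3.00, 2.22 and 0.997 RPKM, with replicate 3 just under the minimum. LOG4, which activates cytokinin, had 2.27, 2.43 and 1.27 RPKM, and CKX1, which breaks cytokinin down, had 1.50, 1.46 and 0.528 RPKM. MES1, a methyl ester hydrolase, had 3.63, 1.12 and 2.29 RPKM and CYP78A7, a cytochrome P450 of organ growth, had 3.27, 1.27 and 1.28 RPKM. Replicate 3 was the lowest in GA20OX1, LOG4 and CKX1 but not in MES1 or CYP78A7. Annotated neighbours cover 79.4% of CKX1, without strand to part the reads.

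By word patterns for terpene and prenyl synthases, 5 of 11 listed genes were emf2-only, against 1.15% of all listed genes. The patterns do not take in every gene of terpenoid synthesis, so this is not a share of that pathway. TPS6, a terpene synthase, had 6.32, 3.15 and 5.42 RPKM. The terpene cyclase gene AT5G48110 had 1.18, 8.60 and 1.92 RPKM and was thus carried by replicate 2, with the others under 2 RPKM. TPS30 and the cytochrome P450 gene CYP71A28 lie next to each other and averaged 1.34 ± 0.850 and 1.02 ± 0.239 RPKM (SD, n = 3). The prenyl transferase genes AT3G14510 and GGPS3 averaged 2.52 ± 0.591 and 1.49 ± 0.159 RPKM.

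Of the DUF626 family, 4 of 8 listed genes were emf2-only. AT1G28500 had 3.66, 3.59 and 3.45 RPKM, and AT2G20620 and AT3G44770 averaged 1.36 ± 0.260 and 1.43 ± 0.392 RPKM, all well below AT1G27860. The other 4 listed DUF626 genes, AT1G23950, AT1G23960, AT1G23970 and AT3G19520, were in all 3 tables, at 5.30 to 27.6 RPKM in emf2 callus, 5.55 to 26.9 RPKM in WT callus and 5.16 to 22.0 RPKM in leaf. In the MATH and TRAF family 5 of 45 listed genes were emf2-only, led by AT3G58360 with 5.73, 5.07 and 6.03 RPKM. Protein kinases, 8 of 1061, and pentatricopeptide repeat genes, 3 of 324, had shares below 1.15%. Reads of close copies, as in these families, may have been split between genes.

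The 8 genes of chromatin and genome upkeep were low, with a median of 1.34 RPKM and a highest mean of 1.69 RPKM. They included HDA18, a histone deacetylase, with 1.79, 1.29 and 1.11 RPKM, IDM2, which takes part in active DNA demethylation, with 1.56, 1.32 and 0.554 RPKM, and the mismatch repair gene MSH3 with 1.20, 1.34 and 0.970 RPKM. AT2G19910, of the RNA-dependent RNA polymerase family, averaged 1.69 ± 0.214 RPKM. All 4 stayed under 2 RPKM in every library. Enzymes of other kinds were headed by AT5G62420, an oxidoreductase, with 5.35, 5.13 and 8.32 RPKM, the callose synthase-like AT2G30680 with 6.38, 5.01 and 4.50 RPKM and the lipase GLIP1 with 4.81, 3.27 and 4.28 RPKM. The cupin gene AT5G39120 had 3.99, 3.75 and 0.939 RPKM, the defensin-like AT1G77525 5.17, 2.37 and 3.74 RPKM and the extensin-like AT5G22430 3.75, 2.29 and 1.96 RPKM. By name patterns, receptors and kinases were 4.17% of the emf2-only genes, against 5.74% of all listed genes.

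Of the emf2-only genes 203 were protein-coding (94.0%, against 98.3% of all listed genes), 7 were transcribed pseudogenes, 5 were other non-coding RNAs and 1 was a microRNA. MIR824A, whose product miR824 is shown above and is known to limit AGL16 in the stomatal lineage, had 1.90, 5.25 and 2.38 RPKM from 332, 1067 and 338 reads. The RPKM values imply a counted length of 2897 bases for this locus, longer than its annotated span at chr4:12625094-12625782, so reads outside the hairpin may be included. Another annotated gene, AT4G24413, overlaps 67.8% of that span, and mature miRNAs were not measured. Its target AGL16, a MADS-box gene listed in all tissues, had 3.85, 3.71 and 2.90 RPKM in emf2 callus, 8.27, 7.15 and 7.10 RPKM in WT callus, and 7.68, 7.43 and 9.62 RPKM in leaf. The emf2 callus values all lay below those of the other groups, and the log2 difference to WT callus was −0.93 ± 0.14 (SE, limma adjusted p = 0.0492, n = 3 each). AGL16 was looked up after its values could be seen, and it passed in 4 of 15 alternatives, with adjusted p between 0.0229 and 0.209. It did not pass without any 1 emf2 callus library (0.187 to 0.209 by limma), nor without WT callus replicate 1 (0.167) or 3 (0.101), nor without leaf replicate 1 (0.0806) or 2 (0.0789). No relation between the level of the precursor and that of AGL16 was tested.

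**Figure D3:**
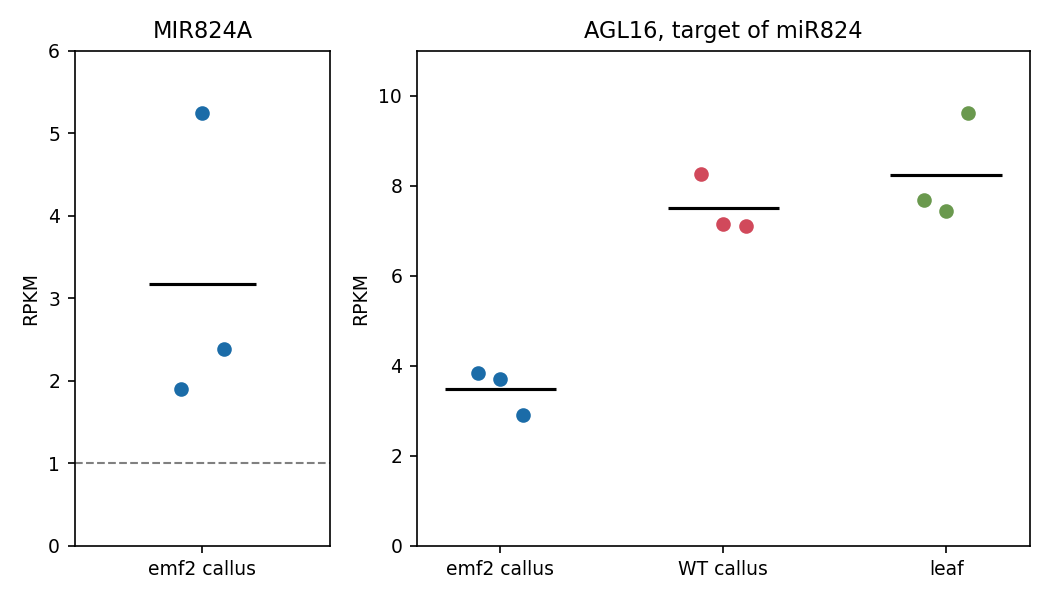
RPKM of MIR824A in the 3 emf2 callus libraries (left, dashed line at the 1 RPKM listing minimum) and of its target AGL16 in emf2 callus, WT callus and leaf (right), with bars at the means. AGL16 lies between 2.90 and 3.85 RPKM in emf2 callus and at 7.10 RPKM or more in the other groups.

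Other genes tied to small RNAs were AT4G29770, a target of trans-acting siRNAs, with 2.13, 2.31 and 2.09 RPKM, and its neighbour HTT4 with 1.47, 1.39 and 1.58 RPKM. The 3 libraries lay close together in both.

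The spread of the emf2-only genes over the 3 emf2 callus libraries is a description, since these libraries chose them. Their median coefficient of variation was 23.4%, against 11.3% for the other genes of the table and 47.2% in WT callus for the genes listed only there. Within genes of 1 to 2 RPKM it was 23.2% in 143 emf2-only genes and 19.9% in 1459 others. Counting error alone would give a median of 7.23% at these read numbers. The least variable among genes of at least 2 RPKM were AT3G11165, AT1G30940 and AT1G28500, with 2.43%, 2.55% and 2.94%. The most variable of these were AT5G48110, AT5G40645 and TRM24, with 105%, 93.5% and 87.7%, each highest in replicate 2.

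**Figure D4:**
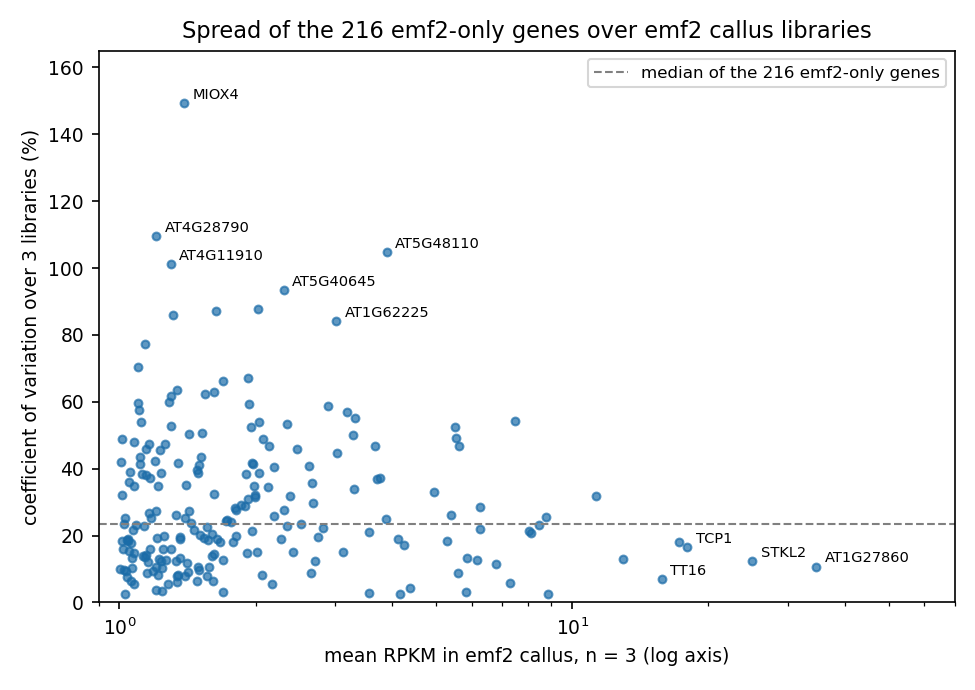
Coefficient of variation over the 3 emf2 callus libraries (%) against mean RPKM (log axis) for the 216 emf2-only genes, with their median of 23.4% dashed. Genes above 10 RPKM lie at 31.9% or less, and MIOX4 stands highest at 149%.

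Some genes were listed on the strength of 1 library. All 3 libraries were above 1 RPKM in 135 genes (62.5%), 2 in 59 and 1 in 22. Of the genes listed only in WT callus, 72 of 210 (34.3%) were above 1 RPKM in all 3 WT callus libraries. The same share over the other WT callus genes was not taken, so a difference between the sets of libraries is not set apart. MIOX4, an enzyme of inositol breakdown, had 0.0555, 3.79 and 0.334 RPKM, the STAY-GREEN-like AT4G11910 had 0.741, 2.80 and 0.353 RPKM, and AT1G66610, of the TRAF family, had 0.631, 0.632 and 2.16 RPKM. In 10 genes over 60% of the summed RPKM came from 1 library, which was replicate 2 in 8 of them. Replicate 3 was the lowest library in 117 of the 216 genes (54.2%), against 37.1% of the other genes of the table. Among genes of 1 to 2 RPKM the shares were 57.3% of the emf2-only genes and 47.3% of the others. It was also the library with the fewest reads, and the part of depth in this order was not tested.

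The genes nearest the listing minimum were RLP56, LSH7 and CYP702A6, at 1.00, 1.01 and 1.01 RPKM in emf2 callus. Just outside the set lay MLO7, AT1G49920 and AT4G15390, whose WT callus means were 1.00, 1.01 and 1.01 RPKM beside 1.52, 1.04 and 1.88 RPKM in emf2 callus. AT2G17210, SETH1 and AT3G52530 were kept out by leaf means of 1.02, 1.04 and 1.05 RPKM beside 1.08, 1.26 and 1.29 RPKM in emf2 callus.

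The emf2-only genes lay on all 5 chromosomes in shares within 3 percentage points of those of all listed genes: 58, 31, 40, 38 and 49 on chromosomes 1 to 5. There were 18 genes in 9 pairs with no annotated gene between the partners (8.33%), against 6 of 210 (2.86%) among genes listed only in WT callus. No baseline over all listed genes was taken, so these counts do not show clustering. The pairs included MAF4 with MAF5, ORP4A with ORP4B (relatives of oxysterol-binding proteins), DUF8 with DUF9, TPS30 with CYP71A28, AT3G11160 with AT3G11165 and AT5G24205 with AT5G24206, both non-coding. ORP4A averaged 3.87 ± 0.961 RPKM and ORP4B 1.96 ± 0.417 RPKM. On chromosome 4 the bHLH genes AT4G25400 and AT4G25410 and GA20OX1 lay close together, with 3076 and 3329 bases between gene ends and another annotated gene between the first pair, at 1.42 ± 0.131, 8.11 ± 1.68 and 2.07 ± 1.01 RPKM (SD, n = 3 each). Within 5000 bases between gene ends there were 13 pairs with 25 genes. Reads may be split between partners of the same family.

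Of the 216 genes, 54 overlapped another annotated gene, and in 27 an overlapping gene was itself listed in emf2 callus. AT5G10530, a lectin receptor kinase at 1.50 ± 0.304 RPKM, and AT5G27400, a methyltransferase at 1.21 ± 0.0466 RPKM, lie wholly inside AT5G10540 and AT5G27410, which averaged 15.5 and 3.92 RPKM in emf2 callus, 15.6 and 2.79 RPKM in WT callus and 9.34 and 2.01 RPKM in leaf. The profilin-family gene AT4G19400, at 1.03 ± 0.0268 RPKM, shares 94.3% of its span with AT4G19410. AT5G10530 lies on the opposite strand of its partner and the other 2 on the same strand, and reads of shared bases cannot be told apart in any of them. AT5G67488, at 1.07 ± 0.231 RPKM, shares 71.9% of its span with AT5G67490, at 3.95 RPKM in emf2 callus and 4.34 RPKM in WT callus. AT3G09430, at 1.08 ± 0.159 RPKM, shares 42.7% with AT3G09440, at 237 RPKM in emf2 callus and 220 RPKM in WT callus.

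Genes next to emf2-only genes, but not in the set, were compared between the callus groups. There were 412 of them; 224 were listed in neither callus table and 180 were listed in both and tested with limma, of which 25 overlap the emf2-only gene beside them and can share its reads. Of these, 1 passed as higher and 1 as lower in emf2 callus (adjusted p under 0.05), against 0.13% and 0.142% of all 16185 genes tested (44 called, 0.272% in both directions). AT3G47210, a DUF247 gene next to PLC9, had 10.5, 12.6 and 11.2 RPKM in emf2 callus and 1.48, 2.90 and 1.01 RPKM in WT callus, groups that did not overlap (log2 difference 2.20 ± 0.25 SE, limma adjusted p = 0.0463, n = 3 each). AIL5, an AP2-type factor of the family that drives embryo and meristem growth, next to AT5G57400, had 5.13, 3.79 and 6.11 RPKM in emf2 callus and 13.0, 15.2 and 12.4 RPKM in WT callus (log2 difference −1.29 ± 0.17 SE, limma adjusted p = 0.0382, n = 3 each). AT3G47210 has no leaf values, so its own spread came from callus alone. Each passed in 5 of 15 alternatives, with adjusted p between 0.00836 and 0.212 for AT3G47210 and between 0.0238 and 0.168 for AIL5 (limma). In 10 of the 15 none of the 180 neighbours passed, among them those without any 1 emf2 callus library, WT callus replicate 1 or 3, or leaf replicate 1 or 2.

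A further count had no threshold on p and took differences of at least 1 in log2(RPKM + 1). By this cut 13 neighbours (7.22%) were higher and 3 (1.67%) lower in emf2 callus, against 1.72% and 1.79% of all genes tested. The cut asks for more than a 2-fold change in RPKM, the more so in low genes. Without the overlapping neighbours, 10 of 155 (6.45%) were higher by this cut and 3 (1.94%) lower. The 10 still included relatives of the emf2-only gene beside them, and reads may have been split between such genes. They were MLP28 and MLP34 beside MLP31, and AT5G39130 beside the cupin gene AT5G39120. ADS1 beside the desaturase gene AT1G06090 and AT3G26922 beside the RNI-like gene AT3G26930 were others. Over all 180, the median log2 difference was 0.09, against 0.00 over all genes. At an unadjusted p under 0.05 (limma), 18 neighbours (10.0%) were higher, against 4.81% of all genes, and 6 were lower. The 13 included AT3G58770 next to SHP1, with 6.67, 4.84 and 5.04 RPKM in emf2 callus and 2.17, 2.25 and 1.40 RPKM in WT callus, and ERF1, an ethylene response factor, with 39.3, 31.3 and 27.6 RPKM in emf2 callus and 10.4, 18.6 and 11.2 RPKM in WT callus. The callus groups did not overlap in either, and neither passed (limma adjusted p = 0.0948 and 0.0779, n = 3 each). AT3G58770 has no leaf values. Both were named after their values were seen.

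**Figure D5:**
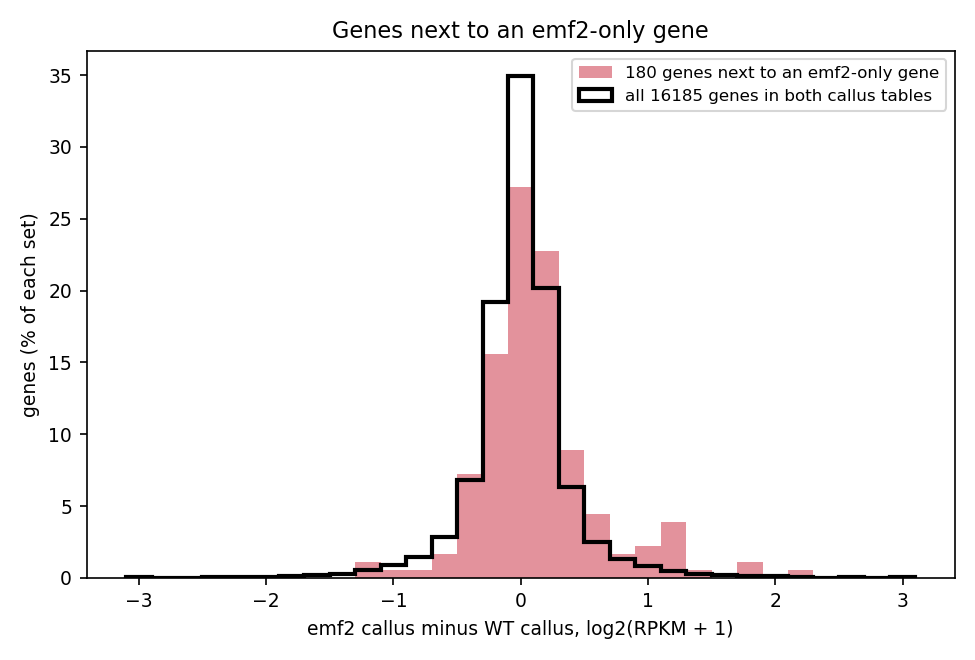
Difference of emf2 callus minus WT callus in log2(RPKM + 1) for 180 genes next to an emf2-only gene (filled) and all 16185 genes listed in both callus tables (line), as the share of each set in % per bin. More of the neighbours lie above 1 (7.22%) than of all genes (1.72%), and few of either set lie below −1.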

How the data were processed

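Polyadenylated RNA was read from 9 libraries in 3 groups of 3 biological replicates, each library made with 15 PCR cycles and 4 libraries to a lane, per the labels' protocols. The submitters' processing notes name FastQC, cutadapt, TopHat and the TAIR10 build; their versions and the counting tool are not given in the sources used here. The authors deposited RPKM values per gene and library in 1 table for each tissue, and each table holds only genes with a mean above 1 RPKM, as tested on the values. Columns were matched to samples by name, with 0 columns left over. Genes were mapped to RefSeq TAIR10.1 by identifier.

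Whole reads were recovered from the steps of the RPKM values (whole in 100% of 18861 genes at a relative tolerance of 5e-13), which gave the depth of each library. The recovered scale was set by annotated gene spans, so read numbers are relative to it, and counting error covers counting alone. Levels of the emf2-only genes were described by mean, SD and coefficient of variation. The 16185 genes in both callus tables were compared with limma 3.58.1 (R 4.3.3; trend, log2(RPKM + 1) with a pseudocount of 1, all 9 libraries, two-sided, Benjamini-Hochberg adjustment over all genes, threshold 0.05). Genes missing from the leaf table entered without leaf values. Fold changes on this scale understate the change of low genes. Alternatives were a pseudocount of 0.1, a mean of at least 5 RPKM, quantile and library-total scaling, a replicate block, callus libraries only and leaving out each library. The remaining steps used Python 3.11.15, pandas 2.3.3 and numpy 2.4.6, and the fit was tested on simulated data.

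Named genes were EMF2, the 25 highest emf2-only genes, up to 4 per functional class, those on marker lists or in runs of neighbours, the 3 most and 3 least variable, the 3 nearest the minimum, and neighbours that passed. Genes named by known role, in pairs, by family, by overlap or for resting on 1 library were added after their values were seen. The emf2-only genes and all lists were chosen with earlier results of these data known, the class patterns were edited after the gene names were seen, and families and roles were formed with values in view. These groupings support nothing by themselves.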

Additional observations from a re-analysis of the deposited data

How the results depend on the processing

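The 216 emf2-only genes became 73 with a mean above 2 RPKM, 26 above 5 RPKM and 135 with every library above 1 RPKM. Leaving out 1 library gave 194 to 207, library-total scaling 215 and keeping the set-aside words 244. The 44 genes called over all genes became 26 with a pseudocount of 0.1, 73 with quantile normalization, 20 with callus libraries only, and 4 to 200 when 1 library was left out, the highest without WT callus replicate 2 and the lowest without emf2 callus replicate 1 or 2. Of the 44, 47.7% were higher in emf2 callus, against 42% to 100% without 1 library. The 2 neighbours that passed became 0 with a pseudocount of 0.1, 4 with a mean of at least 5 RPKM, 5 with quantile normalization, 0 with callus libraries only, and 0 to 7 without 1 library, 7 without WT callus replicate 2 and 4 without leaf replicate 3. At an unadjusted p under 0.05 (limma) the neighbours numbered 24, and 15 to 36 over these settings. The log2 difference of EMF2, 0.95, was 0.88 to 1.03 without 1 library, and passed at 0.95 without leaf replicate 3. The cause of these shifts was not tested.

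With the replicate number as a block, 26 genes (61.5% higher) and 0 neighbours passed, against 32 neighbours at an unadjusted p under 0.05, and EMF2 stayed at 0.95. The numbers were not taken to pair the samples, because the labels do not say that they mark a shared origin. Correlations of same-numbered emf2 and WT callus libraries were −0.16, 0.19 and 0.60 for replicates 1, 2 and 3. Unlike-numbered libraries gave −0.50 to 0.33, so the value for replicate 3 was the highest of all, and a shared origin was not tested. Other alternatives kept the counts within 1.5 times: 56 of 11328 genes at a mean of at least 5 RPKM, 50 genes and 3 neighbours with library-total scaling, and 19 transcription factors with the class patterns as first written. That last setting, and neighbours without overlap (2 passed), were chosen after seeing the data. The log2 difference of SMB, −0.04 and never past the threshold, was −0.32 without WT callus replicate 3 and 0.22 and 0.11 without WT callus replicate 1 and without emf2 callus replicate 2, where its direction reversed. Among 124 named emf2-only genes, 61 had a mean under library-total scaling that lay more than 1 SD from the deposited one. That scaling raised the means compared by a factor of 1.22 to 1.28, a near-uniform shift that passes 1 SD in genes of small spread. Leaving out 1 of 3 libraries cannot move a mean by 1 SD, so that comparison is no check on those means. Of the 124 genes, 20 were at or under 1 RPKM without some library.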
